A study of Mus musculus with 10 samples.

Results

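The peaks described here are those that chromatin immunoprecipitation placed around Fgf8, Pax8 and Lhx1, genes switched on when nephron progenitors commit to form epithelium. They were taken from 4 peak lists, 2 for the homeodomain factor Six2 and 2 for β-catenin. A peak was a member if it overlapped 1 of 3 windows of 300 kb in the mm9 mouse build. The windows were chromosome 19, 45650000 to 45950000 (Fgf8), chromosome 2, 24150000 to 24450000 (Pax8), and chromosome 11, 84200000 to 84500000 (Lhx1). This gave 14 peaks of 10348 in all, 8 in the Fgf8 window and 3 each in the Pax8 and Lhx1 windows. Merging peaks that shared at least 1 bp left 10 sites of 7666.

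All cells came from mouse kidneys at stage E16.5 of mixed strain background, were positive for the BAC transgene Six2GFPcre and were sorted by FACS, so that the transgene defines which cells count as progenitors. Six2 was precipitated from cells used fresh after sorting. For β-catenin the cells were pelleted and kept for 24 h in serum-containing medium with 4 µM BIO, a GSK3 inhibitor that stabilises β-catenin, so effects of antibody and of culture cannot be told apart. The series has 10 samples, and the 6 input and rabbit IgG samples were not analysed here. Peak lists carry no expression values, so the labelled cell type could not be checked against marker genes.

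Six2 holds nephron progenitors in an undifferentiated state. Commitment starts when canonical Wnt signalling from the ureteric bud stabilises β-catenin, which acts on genes through TCF/LEF factors. Fgf8 encodes a secreted growth factor that the first nephron structures need to survive and develop further. Pax8 encodes a paired-box factor that acts with Pax2 in the kidney lineage, and Lhx1 encodes a LIM-homeodomain factor needed to form and pattern the renal vesicle. In the RefSeq order of genes (GRCm38), Fgf8 lies between Fbxw4 and Npm3, Pax8 between Psd4 and Cacna1b, and Lhx1 between Aatf and Mrm1. Regulatory elements of Fgf8 in other embryonic tissues are known from introns of Fbxw4. Peaks were not assigned to genes or measured from transcription start sites, since the gene table used here is not in the build of the lists. Positions are instead given from the middle of each window, which is not the start of the gene.

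The lists held 5645 peaks for Six2 replicate 1, 1622 for Six2 replicate 2, 1873 for β-catenin replicate 1 and 1208 for β-catenin replicate 2. They give position and no read count, so the depth behind a peak is unknown. The place of a peak in its list is called its rank, with rank 1 for the first row. The files do not say how their rows are ordered, so a rank is a place in a list and not a measured strength. Peaks early in a list were recovered by the partner library more often than late ones: for Six2 replicate 1 the share went from 76.5% in the first decile to 4.79% in the last. For the shorter list of Six2 replicate 2, the share found in replicate 1 was 98.2% in the first decile and 74.7% in the last. The labels do not say whether the libraries of an antibody came from separate sorts, and no test across 2 libraries was made. Values over the whole lists are given as background.

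β-catenin peaks were found by both libraries in the Fgf8 window alone. The Pax8 window had β-catenin peaks in replicate 1 only, and the Lhx1 window had none. Six2 peaks were present in all 3 windows, 4 at Fgf8, 1 at Pax8 and 3 at Lhx1, and every one came from Six2 replicate 1. Six2 replicate 2 had 0 peaks in the 3 windows. In 300 kb tiles laid over all chromosomes, at least 1 peak was present in 39.3% for Six2 replicate 1, 15.3% for Six2 replicate 2, 14.9% for β-catenin replicate 1 and 11.6% for β-catenin replicate 2. Of the tiles with a β-catenin replicate 1 peak, 55.2% held none of β-catenin replicate 2, as in the Pax8 window. Both β-catenin libraries marked 2 of the 10 sites (7.24% of all sites of the series), both Six2 libraries marked 0 (17.6% of all sites), and 2 sites held peaks of both antibodies (9.99% of all sites). In all, 3 sites had peaks of at least 2 libraries (26.7% of all sites), and the other 7 were each seen in 1 library (73.3% of all sites). The sites with both antibodies, 1 at Fgf8 and 1 at Pax8, both rest on Six2 replicate 1, and without that library their number was 0. Without β-catenin replicate 1 it was 1.

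**Figure D1:**
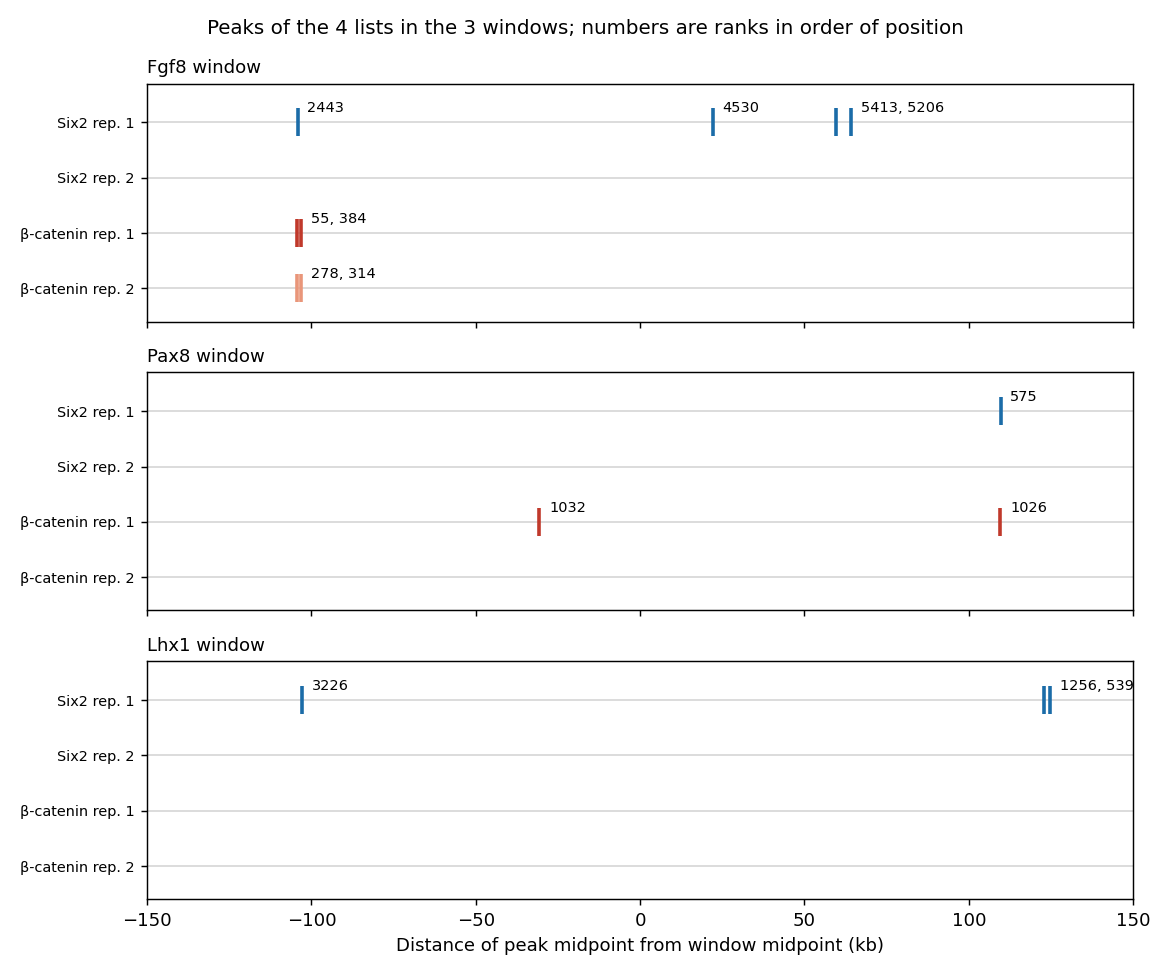
Peaks in the windows around Fgf8, Pax8 and Lhx1. The horizontal axis is the distance of a peak's midpoint from the middle of its window in kb, each line is 1 library, each tick is a peak, and the numbers are ranks in order of position. Ticks of both β-catenin libraries appear only near -104 kb in the Fgf8 window, and the line of Six2 replicate 2 is empty in all 3 windows.

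The Fgf8 window was led by a pair of neighbouring sites about 104 kb from its middle, on the side of lower coordinates. The first site spanned chromosome 19, 45695447 to 45695854 (408 bp). β-catenin replicate 1 called it at rank 55, from 45695636 to 45695814, and β-catenin replicate 2 at rank 278, from 45695447 to 45695755. A Six2 replicate 1 peak of rank 2443, from 45695712 to 45695854, overlapped both. The site was therefore early in a β-catenin list and near the middle of the Six2 list. All 3 peaks had 44 bp in common, from 45695712 to 45695755.

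The second Fgf8 site began after a gap of 686 bp, at chromosome 19, 45696541 to 45696924. It was called for β-catenin at rank 384 in replicate 1 and at rank 314 in replicate 2. The replicate 2 peak, 91 bp wide from 45696746 to 45696836, lay wholly inside the 384 bp peak of replicate 1. No Six2 peak overlapped this site, and the nearest, the one on the first site, ended 686 bp short of it. The first site came before the second in both lists, at ranks 55 and 384 in replicate 1 and 278 and 314 in replicate 2. Scaled to list length, these ranks were 2.94% and 20.5% of the way down the replicate 1 list. In the replicate 2 list they were 23.0% and 26.0% of the way down. The order of only 2 sites is a description and does not measure agreement of the libraries.

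At these Fgf8 sites the peaks of the 2 β-catenin libraries lay further apart than most of their overlapping pairs. At the first site their midpoints were 124 bp apart, and 92.2% of the 553 overlapping pairs of these libraries were closer (median 30 bp). At the second they were 58.5 bp apart, and 73.6% of the pairs were closer. Both sites held a peak that was wide for its list. The 309 bp peak of replicate 2 at the first site was wider than 95.0% of its list, and the 384 bp peak of replicate 1 at the second was wider than 93.4% of its own. With a reciprocal overlap of 50% required, neither site counted as shared between the β-catenin libraries, because the shared bases covered 38.8% of the wider peak at the first site and 23.7% at the second.

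Ranks were also averaged over the 2 β-catenin lists, without scaling to list length, so the longer list weighs more. By this mean, the first Fgf8 site was in place 118 and the second in place 231. These are places among the 555 merged sites with peaks of both β-catenin libraries. Of those 555 sites, 47.6% held a Six2 peak and 22.7% held peaks of both Six2 libraries. The pattern of the first site, both β-catenin libraries with Six2 replicate 1 only, occurred at 128 sites (1.67% of all sites). Within them the median rank was 314.5 in β-catenin replicate 1, 256.5 in β-catenin replicate 2 and 2083.5 in Six2 replicate 1. The Fgf8 site stood before most of these in β-catenin replicate 1 (19 sites came earlier) and near their middle in the other lists (68 and 74 came earlier). The pattern of the second site, both β-catenin libraries and no Six2, occurred at 291 sites with median ranks of 455 and 383, and the Fgf8 site lay slightly ahead of both.

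The share of β-catenin peaks with a neighbour as close as in the Fgf8 pair depended on the list. In β-catenin replicate 1 the peaks of the pair were 726 bp apart, and 155 peaks of that list (8.28%) had another at that distance or less. In replicate 2 they were 990 bp apart, and 30 peaks (2.48%) had one as close. When regions were built from the 2 β-catenin lists alone, the Fgf8 pair was again 726 bp apart. Among 551 such regions, 8 (1.45%), counting those at Fgf8, had another at that distance or less, and the median distance to the nearest was 755 kb. Since neighbouring regions come from the same libraries, the pair is not a pair of independent observations.

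The other 3 Fgf8 sites were Six2 peaks of replicate 1 late in the list. A peak at chromosome 19, 45822076 to 45822204, had rank 4530 and lay 22.1 kb from the window's middle toward higher coordinates. Peaks at 45859655 to 45859803 (rank 5413) and 45863991 to 45864215 (rank 5206) were separated by 4.19 kb. In the deciles of the list that hold these 3 peaks, 4.79 to 5.66% of all Six2 replicate 1 peaks were found in replicate 2. The nearest β-catenin peaks were those of the second Fgf8 site, 125 to 167 kb away.

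**Figure D2:**
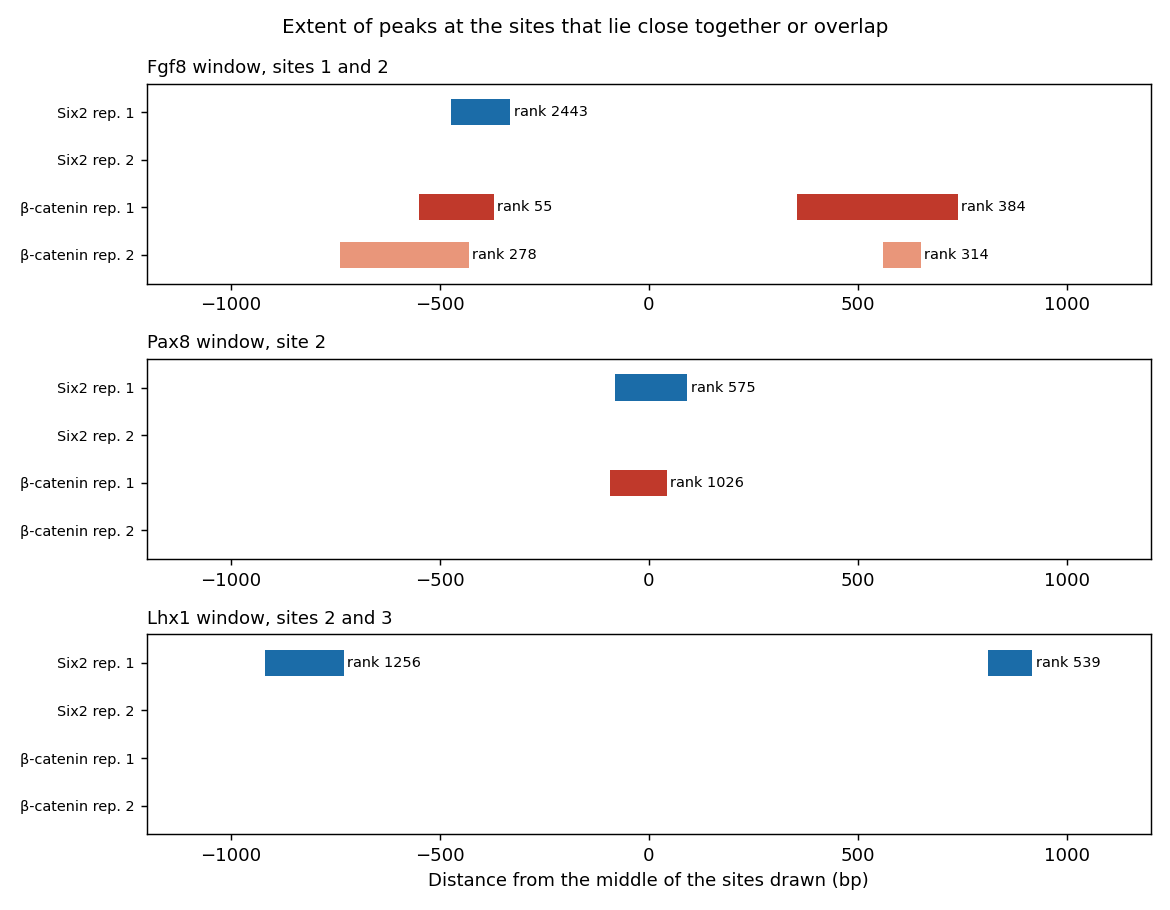
Extent of the peaks at the close or overlapping sites of each window. Bars run from the start to the end of a peak, in bp from the middle of the sites drawn, with 1 line per library and the rank beside each bar. At Fgf8 both β-catenin libraries have bars at both sites and Six2 replicate 1 at the first only, at Pax8 the bars of Six2 replicate 1 and β-catenin replicate 1 nearly coincide, and at Lhx1 the 2 bars belong to Six2 replicate 1.

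Pax8 had 1 site where Six2 and β-catenin coincided, and each antibody called it in 1 library. The site spanned chromosome 2, 24409541 to 24409725, 109.6 kb from the window's middle toward higher coordinates. Six2 replicate 1 called it at rank 575, from 24409552 to 24409725. β-catenin replicate 1 called it at rank 1026, from 24409541 to 24409675. The peaks shared 124 bp, which was 71.3% of the Six2 peak and 91.9% of the β-catenin peak, and their midpoints were 30.5 bp apart. Over the 652 overlapping pairs of these lists the median distance was 40.8 bp, and 41.0% of pairs were closer.

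The Pax8 site thus had a Six2 peak from early in the list (10.2% of the way down) and a β-catenin peak from past its middle (54.8%). At the first Fgf8 site the Six2 peak was 43.3% of the way down its list. The β-catenin peaks there were 2.94% of the way down in replicate 1 and 23.0% in replicate 2. The pattern of Six2 replicate 1 with β-catenin replicate 1 and no other library occurred at 199 sites (2.60% of all sites). Among them the median Six2 rank was 3045, and 6 sites had an earlier Six2 rank than the Pax8 site. The β-catenin rank of 1026 was close to their median of 1169. In the second decile of the Six2 replicate 1 list, which holds rank 575, 45.2% of peaks were found in Six2 replicate 2 and 17.2% in β-catenin replicate 1. The Pax8 peak was found in the second of these and not in the first.

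A further β-catenin replicate 1 peak lay in the Pax8 window at chromosome 2, 24269201 to 24269336, 30.7 kb from the middle toward lower coordinates. Its rank of 1032 was next to that of the shared site, and its width of 136 bp next to the 135 bp of the other. It overlapped no peak of another library. In the decile of the list that holds ranks 1026 and 1032, 17.1% of peaks were found in β-catenin replicate 2 and 29.4% in Six2 replicate 1. β-catenin replicate 2 had its nearest peak 1054 kb from the shared site and 1195 kb from the other.

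Lhx1 had Six2 peaks and no β-catenin peak. The earliest in the list was at chromosome 11, 84474633 to 84474737, at rank 539 of Six2 replicate 1. A second, at 84472903 to 84473090 with rank 1256, lay 1.54 kb from it, and both were about 124 kb from the window's middle toward higher coordinates. In that list 4.73% of peaks had another peak as close, and the median distance was 79.2 kb. The third Lhx1 peak was at 84247262 to 84247324, 226 kb from the pair, with rank 3226. It was 63 bp wide, and 4.07% of the peaks in its list were narrower. The nearest β-catenin peak of either library was 988 kb from the site of rank 539.

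The Lhx1 peak of rank 539 was among the earliest Six2 peaks that no other library found. In the first decile of the Six2 replicate 1 list, 76.5% of peaks were found in replicate 2, and this one was not. Sites seen in Six2 replicate 1 only numbered 3910 (51.0% of all sites), with a median rank of 3377.5, and 105 of them (2.69%) came before rank 539. For rank 1256 the share of its decile found in replicate 2 was 35.9%, and for rank 3226 it was 13.1%.

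**Figure D3:**
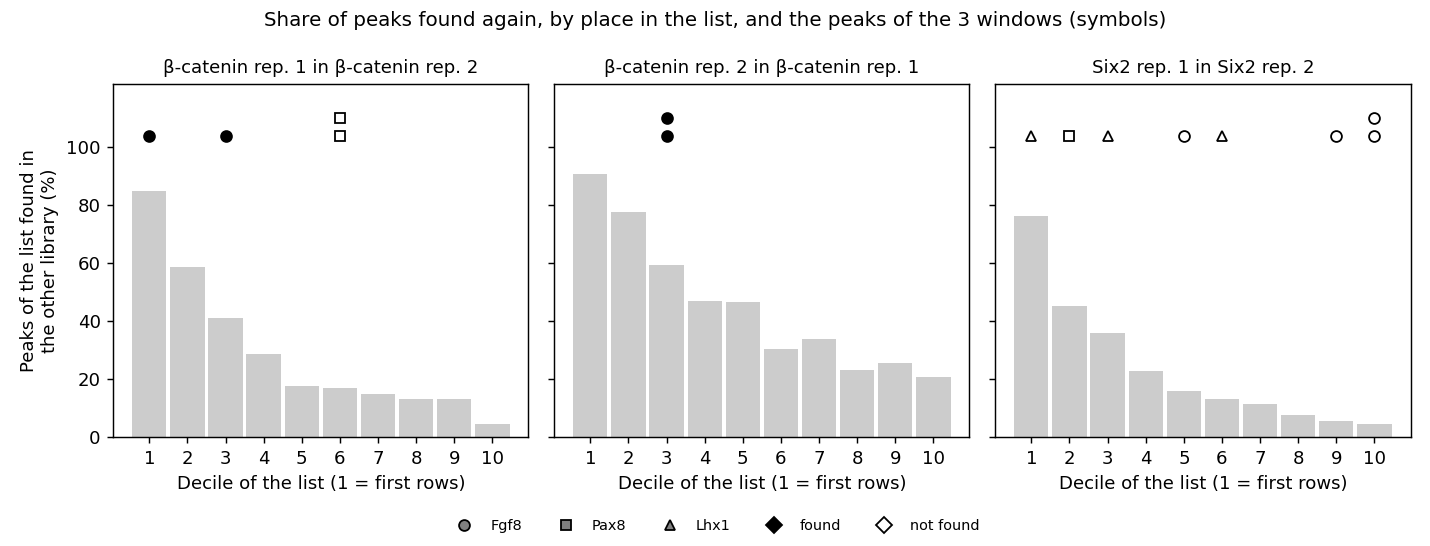
Recovery of peaks by the partner library of an antibody, by decile of the list. Bars give the percent of all peaks in each decile that the partner has, and symbols above them mark the peaks of the Fgf8, Pax8 and Lhx1 windows, filled where found and open where not. Filled symbols are the Fgf8 peaks of the β-catenin lists, and all 8 symbols of Six2 replicate 1 are open, including those in the first 3 deciles.

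The absence of Six2 replicate 2 from the 3 windows can be set beside the lists as a whole. Over all peaks of Six2 replicate 1, 24% were found in replicate 2, against 0 of the 8 here. In the other direction, 68.5 to 98.2% of the replicate 2 peaks in each decile were found in replicate 1. Of the 8, 3 were within the first 1622 ranks, the length of the replicate 2 list, where 53.5% of peaks were found, and 5 came later, where 12.1% were found. The nearest Six2 replicate 2 peak to a Six2 replicate 1 peak of the windows was 717 kb away at Fgf8, 2349 kb at Pax8 and 2096 kb at Lhx1. The tiles give a plain background for this. Of the tiles with a Six2 replicate 1 peak, 63.8% held no replicate 2 peak, as did 32.5% of those with at least 3 and 20.3% of those with at least 4. The Lhx1 window had 3 such peaks, a count reached by 6.24% of all tiles, and the Fgf8 window had 4.

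Peaks of β-catenin replicate 1 in the windows were found in replicate 2 in 2 of 4 cases, the Fgf8 pair, against 29.5% of its whole list. By decile of that list, the share was 85.1% for Fgf8 rank 55 and 41.2% for Fgf8 rank 384. For the Pax8 ranks 1026 and 1032, which were not found, it was 17.1%. Both β-catenin replicate 2 peaks were found in replicate 1, against 45.6% of its list and 59.5% of the decile that holds ranks 278 and 314. Across antibodies, 2 of the 8 Six2 replicate 1 peaks were found in a β-catenin list, against 12.9% over its list. Of these 8, 2 were found in β-catenin replicate 1 (11.5% of the list) and 1 in β-catenin replicate 2 (5.63%). Seen from β-catenin, 2 of 4 peaks of replicate 1 were found in Six2 replicate 1 (34.8% of the list) and 0 in Six2 replicate 2 (19%). For β-catenin replicate 2, 1 of 2 peaks was found in Six2 replicate 1 (26.3%) and 0 in Six2 replicate 2 (13.3%). With members this few, such counts are descriptions.

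With the whole lists the Fgf8 window held more peaks than the other windows, and this rested in part on late peaks of the longest list. The Fgf8 count fell from 8 to 4 without Six2 replicate 1, and also with each list cut to the shortest or with Six2 replicate 1 cut to the length of replicate 2. The Pax8 count stayed at 3 under both cuts and was 1 without β-catenin replicate 1. The Lhx1 count was 1 with each list cut to the shortest, 2 with Six2 replicate 1 cut, and 0 without Six2 replicate 1. At full length, the 8 Fgf8 peaks were matched or exceeded by 1.86% of 8431 tiles of the same length, which held 1.22 peaks on average over the 4 lists. By library, 2 peaks or more were found in 3.81% of tiles for β-catenin replicate 1 and in 2.09% for replicate 2, and 4 or more in 2.63% for Six2 replicate 1. At least 2 peaks of each β-catenin library, as at Fgf8, occurred in 1.11% of tiles, and 30.9% of those tiles also lacked a Six2 replicate 2 peak. The 3 peaks of the Pax8 window, and likewise of the Lhx1 window, were matched by 16.9% of tiles. At least 3 Six2 replicate 1 peaks with no peak of another list, as at Lhx1, occurred in 1.01% of tiles. These were 85 of the 526 tiles with at least 3 Six2 replicate 1 peaks. Tiles differ in gene content and in how much of them could be mapped, and genes for windows were chosen with these data known, so these shares are no test.

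Wider windows would add few peaks and narrower ones would lose most: windows of 600 kb held 15 peaks, and the middle 200 kb of each window held 4, with 3 at Fgf8, 1 at Pax8 and 0 at Lhx1. Just outside the Fgf8 window, 14.7 kb below its lower limit, was a Six2 replicate 1 peak of rank 4538 at chromosome 19, 45635141 to 45635281. The next peak above the window was 277 kb away. Just inside, the nearest peaks were 45.4 kb from the lower limit and 85.8 kb from the upper. Around the Pax8 window the nearest outside peaks were 1704 kb below and 1014 kb above, so that its 2 sites stood alone in a long stretch without peaks of any list. Inside, they lay 119 kb and 40.3 kb from the limits. At Lhx1 the nearest outside peaks were 313 kb below and 258 kb above, both of Six2 replicate 1 (ranks 3612 and 4509), and the nearest inside were 47.3 kb and 25.3 kb from the limits.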

How the data were processed

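ChIP-seq peak lists of 2 Six2 and 2 β-catenin libraries were used. The deposited files hold another kind of value than counts or signal: 3 columns with the chromosome, start and end of each peak, 1 list per library. Per the submitters' processing notes the build is mm9 and CASAVA version 1.6 was among the tools. For the peak caller, its threshold and its control, nothing is given in the sources used here. Sequences of the peaks were not used here. Coordinates were read as BED intervals and are printed 1-based.

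Peaks overlapping a window were kept, and row number was taken as rank. Peaks counted as shared from 1 bp of overlap, and peaks of all 4 lists were merged into sites by that rule. Every site in 2 or more libraries and the first peak of each library in a window are described by position, and the few others as well. Tiles ran between the outermost peaks of each chromosome. Shares over whole lists serve as background, and no statistical test was made. Replicates were numbered in accession order. The genes, windows and comparisons were chosen with earlier results of these data known. The overlap and merging steps were tested on simulated lists. Alternatives were other window sizes, shorter lists, other overlap rules, tiles offset by 50% of a window, and leaving out each library. Planned counts around other genes of the pathway and distances from start sites needed an mm9 annotation and were not made. Computations used Python 3.11.15 with pandas 2.3.3 and NumPy 2.4.6.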

Additional observations from a re-analysis of the deposited data

How the results depend on the processing

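The number of peaks in the 3 windows, 14, was 4 in the middle 200 kb of each window, 15 in windows of 600 kb, 8 with the first 50% of each list, 8 with each list cut to the shortest (1208 rows) and 9 with Six2 replicate 1 cut to the length of replicate 2, an alternative chosen after seeing the data. These falls follow from shorter windows or lists. Leaving out 1 library gave 6 to 14 peaks, the lowest without Six2 replicate 1. With the first 50% of each list, Fgf8 had 5 peaks, Pax8 1 and Lhx1 2. The 2 sites shared by both β-catenin libraries, at Fgf8, numbered 2 also with midpoints within 500 bp and with only the first 50% of each list kept, and were 0 with a reciprocal overlap of 50%. The sites with both antibodies numbered 2, also by reciprocal overlap and by midpoints, and 1 with the first 50% of each list. Leaving out 1 library gave 0 to 2 such sites, 0 without Six2 replicate 1 and 1 without β-catenin replicate 1. Offsetting the tiles moved the percentile of the peak count from 98.1 to 98.2 for Fgf8 and from 83.1 to 83 for Pax8 and for Lhx1. Sharing within an antibody has no value with a library left out, since it needs both. No paired analysis was possible because the results come from no test and the labels number no replicates. The depth of the libraries is unknown, so a peak missing from a list may lie under its threshold.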
